A study of Lactuca sativa with 53 samples.

Results

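Leaves of lettuce (Lactuca sativa, cultivar Salinas) under high salt were compared directly with leaves under heat after 24 h, to find the genes whose level differed between these stresses. The comparison rests on 6 of the 53 libraries of the study: 3 of plants treated with 250 mM NaCl for 24 h and 3 of plants held at 34 °C for 24 h. All 23231 genes with 0.5 or more in at least 2 of the 30 Salinas libraries were tested, out of 23292 listed, and the transcription factors of the AP2/ERF family are described by name. The study names 224 AP2/ERF genes in lettuce, of which 157 are listed in the table of values and 153 passed this filter. The other 4 listed genes, LsERF045, LsERF059, LsERF063 and LsERF064, had at most 12 reads in any library. Plants of both groups were 18 days old and had grown in soil at 20 °C with 16 h of light. Both stresses ended at the same elapsed time, so salt and heat leaves were sampled at the same interval from the start. The only unstressed group is 3 libraries taken at 0 h, which both stresses share. The same pair of stresses was also sampled at 5 h and at 48 h, in libraries of their own. RNA came from leaf by the methods of the study and from aerial tissue by the labels, and no source used here annotates marker genes with which to check the tissue.

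AP2/ERF proteins are plant transcription factors that share the AP2 DNA-binding domain. Members with a pair of such domains form the AP2 subfamily and act mainly in development, RAV proteins add a B3 domain, and the large group with 1 domain is divided into DREB (groups I to IV) and ERF (groups V to X and VI-L) subfamilies. DREB proteins such as CBF and DREB2 bind the dehydration-responsive element and switch on genes of cold, drought, salt and heat tolerance in Arabidopsis. Many ERF proteins act downstream of ethylene and jasmonate, and group VIII members with an EAR motif repress transcription. The roles given below belong to the Arabidopsis gene that the study lists as closest to each lettuce gene, and are background.

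Values are scaled CPM, counts per 1000000 reads of a library size that the authors scaled with a factor per library. Between 21837116 and 23228098 reads fell on genes in the salt libraries and between 22885848 and 27094408 in the heat libraries, so that 1 read is worth 0.0442 to 0.0472 scaled CPM in salt and 0.0306 to 0.0360 in heat. The salt libraries differed among themselves more than the heat libraries did, with a chi-square per gene of 29.7 to 75.6 between salt replicates and 7.44 to 9.83 between heat replicates, where counting noise alone gives about 1. Replicate 2 of salt stood farthest from heat at 2147 of the 3154 genes higher in salt. The same held at 1658 of the 2568 genes lower in salt. Its part in the calls of salt against heat at 24 h, and of their change to 48 h, was tested by leaving it out. Among the results not repeated without it are the comparisons with the 0 h control, the shares of reads and the summed levels. In leaves as a whole, fewer cells of a type and less RNA per cell cannot be told apart.

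At 24 h, 3154 genes were higher in salt and 2568 were higher in heat (limma, adjusted p of 0.01 or less and a difference of at least 1 on the log2 scale), which is 13.6% and 11.1% of the genes tested. The larger differences lay on the salt side. A difference of 3 or more was seen at 476 of the genes higher in salt, 15.1% of them, and at 56 of the genes lower in salt, 2.18% of them. The split between the directions moves with the scaling. When every library was brought to a sum of 1000000, the median over all genes moved from -0.04 to -0.32, and 2435 genes were higher and 4309 lower, so that higher genes made up 36.1% of the calls against 55.1% before. On linkage groups 1 to 9, 12.4% to 15.4% of the genes were higher in salt and 9.77% to 12.5% lower, and of the 506 genes under linkage group 0, 10.1% were higher and 9.88% lower. Without replicate 2 of salt, 2878 genes were higher and 2184 lower, and without replicate 1 of salt, 3448 and 3094.

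**Figure D1:**
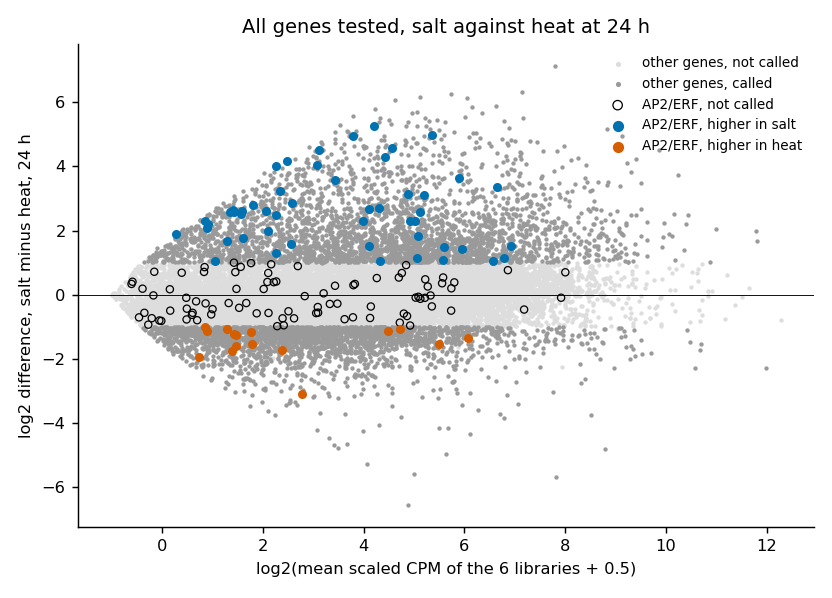
Log2 difference between salt and heat at 24 h (salt minus heat, y axis) against the log2 of the mean level of the 6 libraries plus 0.5 (x axis) for the 23231 genes tested. Grey points are genes outside the AP2/ERF family, blue points the 50 AP2/ERF genes higher in salt, orange points the 16 higher in heat and open circles the 87 not called, and the blue points reach above 5 while a single orange point lies below -3.

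In the AP2/ERF family, 50 of the 153 genes tested were higher in salt and 16 were higher in heat. The share higher in salt, 32.7%, compares with 13.6% of all genes, and the share lower, 10.5%, lies near the 11.1% of all genes. The median difference was 0.33 over the family and -0.04 over all genes. In all 66 genes called, the 3 salt libraries lay beyond the 3 heat libraries. The same held for 3131 of the 3154 genes called higher over all genes and for 2554 of the 2568 called lower. Such separation came with nearly every call and does not set the family apart. Over all genes tested, called or not, 33.5% lay wholly above and 35.3% wholly below. With each library scaled to 1000000, 44 family genes were higher and 27 lower, against 10.5% and 18.5% of all genes. Without replicate 2 of salt, 50 were higher and 11 lower. Salt was the farthest from heat in replicate 2 at 38 of the 50 genes higher in salt, a share of 76.0% against 68.1% of all genes higher in salt.

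The family took up more of the reads in salt. AP2/ERF genes held 0.359, 0.426 and 0.343% of the reads of the salt libraries, 0.287, 0.285 and 0.311% in heat and 0.246, 0.251 and 0.251% in the 0 h control. The salt libraries all lay above the heat libraries, with means of 0.376 ± 0.044% and 0.294 ± 0.014% (SD, n = 3 each, exact permutation test, two-sided, p = 0.1, the smallest this design allows). This share does not depend on the scaling factors.

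**Figure D2:**
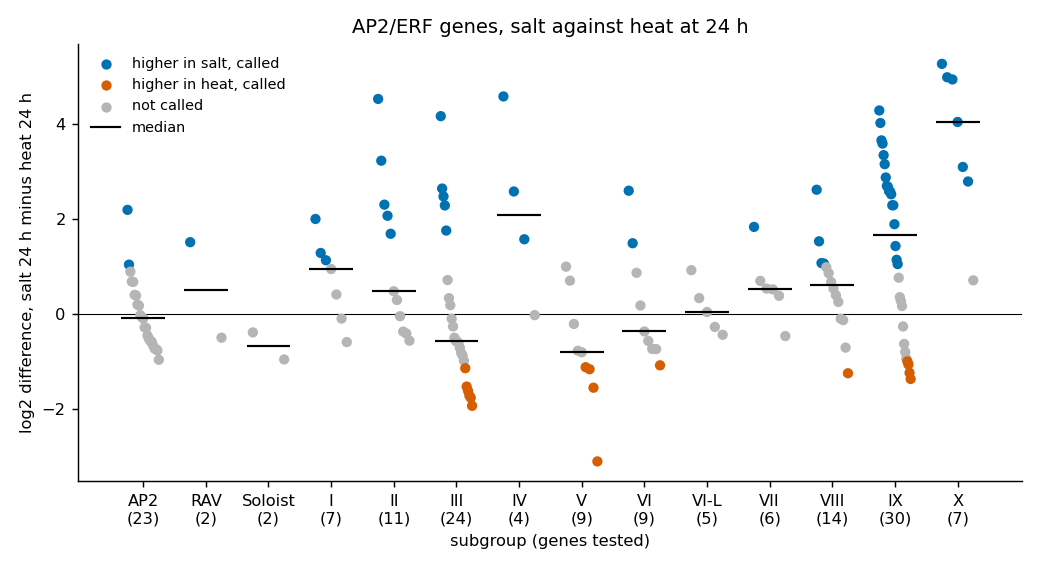
Log2 difference between salt and heat at 24 h (y axis) of the 153 AP2/ERF genes tested, by subgroup (x axis, with the number tested), where each point is a gene and the bar is the median of the subgroup. Group X lies above 0 as a whole with a median of 4.04, group IX has a median of 1.66 with genes on both sides, group III holds genes called in both directions, and the 4 called genes of group V are all higher in heat.

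Group X had the largest median difference of the subgroups, 4.04, and 6 of its 7 tested genes were higher in salt (85.7%, with 13.6% of all genes). LsERF183 and LsERF182 are both closest to Arabidopsis ERF109, also called RRTF1, a factor rapidly induced by reactive oxygen and jasmonate. LsERF183, on linkage group 9 (178315033 to 178315896, minus strand, genome version 8), read 29.9, 67.5 and 9.41 scaled CPM in the salt libraries and 0.197, 0.324 and 0.122 in the heat libraries. LsERF182 read 10.6, 31.0 and 5.34 in salt and 0.131, 0.468 and 0.245 in heat. Every salt library was thus far above every heat library for both genes, although the salt libraries spread widely, with replicate 2 highest and replicate 3 lowest. The differences were 5.27 ± 0.38 for LsERF183 (log2, SE, limma adjusted p = 1.3e-11) and 4.04 ± 0.33 for LsERF182 (adjusted p = 1.0e-10). Each SE pools the spread over all Salinas groups and does not measure the wide spread of salt at 24 h. Over the limma and edgeR alternatives, the highest adjusted p was 0.00052 for LsERF183 and 0.0010 for LsERF182.

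The other group X genes were steadier across the salt libraries. LsERF176, on linkage group 1 (5916237 to 5917601, plus strand) and closest to Arabidopsis ERF114, read 62.6, 94.1 and 80.1 in salt and 3.02, 1.62 and 1.53 in heat. LsERF184, on linkage group 9 (45526844 to 45528203, minus strand) and closest to Arabidopsis ERF112, read 20.9, 37.4 and 20.5 in salt and 0.459, 0.360 and 0.214 in heat. These are differences of 4.99 ± 0.33 and 4.94 ± 0.33, and the heat libraries overlapped the control of 2.33 to 3.04 for LsERF176 and lay below the control of 0.807 to 1.01 for LsERF184. LsERF177, closest to RAP2.6L, a gene of shoot regeneration and stress in Arabidopsis, and LsERF178, also closest to ERF114, were higher by 3.10 ± 0.20 and 2.79 ± 0.38 and are named after their values were seen. The remaining member, LsERF181, differed by 0.71 with an adjusted p of 0.035 and was not called.

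Group IX held the most genes called: 18 of 30 tested were higher in salt (60.0%, with 13.6% of all genes) and 4 were lower (13.3%, with 11.1%). This group contains the Arabidopsis ERF genes of the ethylene and jasmonate defence response. The summed level of its 30 genes was 1130, 1660 and 1060 scaled CPM in the salt libraries and 443, 459 and 539 in the heat libraries. LsERF152, closest to ERF13, read 35.2, 45.0 and 41.1 in salt and 1.77, 1.15 and 1.93 in heat, a difference of 4.29 ± 0.25 (limma adjusted p = 2.2e-13). The salt libraries of this gene were close together and the heat libraries lay above the control of 0.216 to 0.464.

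LsERF156 and LsERF170 are both closest to Arabidopsis ERF98, a gene tied to ascorbate synthesis and salt tolerance there. LsERF156 read 17.5, 23.6 and 17.3 in salt and 1.15, 0.828 and 1.53 in heat, a difference of 3.59 ± 0.24. LsERF170 read 9.42, 9.45 and 6.84 in salt, while the heat libraries held 1, 1 and 3 reads and the control none. From the summed reads, LsERF170 was 155 times higher in salt, with a counting interval of 66.1 to 479 (exact binomial, 95%, counting error only).

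Most genes closest to Arabidopsis ERF2, an activator in ethylene and jasmonate responses, were higher in salt. Of the 6 tested, 5 were higher in salt, with 13.6% of all genes. Of these 5, 4 form a tandem array, LsERF162 to LsERF165, and are not independent. The array lies on linkage group 6 and spans 205 kb (155096407 to 155301725). LsERF162, the first gene of the array, read 151, 274 and 122 in salt, 18.9, 12.2 and 19.2 in heat and 1.98 to 2.11 in the control. It was thus higher in heat than at 0 h and higher again in salt, with 3.34 ± 0.28 between the stresses. LsERF163, LsERF164 and LsERF165 shared this order, with control means of 0.592, 1.31 and 1.52, heat means of 4.51, 9.53 and 10.1, and salt means of 33.9, 50.4 and 53.9 scaled CPM. Their differences between the stresses were 2.70 ± 0.31, 2.29 ± 0.24 and 2.29 ± 0.24. Reads of copies so alike can be assigned to the wrong copy, so the split of the signal within the array is uncertain. LsERF154, on another linkage group, read 67.8, 147 and 113 in salt and 10.2, 7.56 and 6.14 in heat, a difference of 3.66 ± 0.20, with heat overlapping the control of 5.19 to 6.99.

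Not every gene of this group was higher in salt. Of the 11 tested genes closest to Arabidopsis ERF13, 5 were higher in salt and 3 lower, with 13.6% and 11.1% of all genes. LsERF169 read 1.29, 0.567 and 1.55 in salt and 2.56, 4.03 and 3.24 in heat, a difference of -1.24 ± 0.23, and the others lower in salt were LsERF149 at -1.07 and LsERF151 at -1.0, named after their values were seen. LsERF171, closest to Arabidopsis ERF5, which takes part in osmotic stress and defence, read 39.6, 37.7 and 32.9 in salt, 87.3, 93.9 and 107 in heat and 116 to 124 in the control. It was 1.37 lower in salt than in heat on the log2 scale (-1.37 ± 0.11, limma adjusted p = 1.5e-10), with tight replicates in every group. LsERF142, another gene closest to ERF13 and named after its values were seen, had no read in any heat or control library and 1.78, 1.65 and 0.795 scaled CPM in salt, which is at least 14.2-fold higher against a floor of 3 reads per library. Without replicate 2 of salt, LsERF169 was no longer called and 2 genes of the group were called lower.

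In group IV, the DREB2 genes, 3 of 4 tested were higher in salt (75.0%, with 13.6% of all genes). DREB2 factors act in the response to dehydration and heat in Arabidopsis. LsDREB2A (LsERF077, linkage group 9, 76654006 to 76654974, minus strand) read 10.7, 93.8 and 32.1 in salt, 0.852, 1.04 and 0.703 in heat and 1.57, 2.38 and 2.61 in the control. The salt libraries spread widely yet did not overlap the heat libraries, which lay below the control. The difference was 4.58 ± 0.42 (limma adjusted p = 7.6e-10), with the spread pooled over all Salinas groups. LsERF073, closest to DREB2H, read 4.35, 14.1 and 7.07 in salt and 2.59, 2.34 and 1.83 in heat, a difference of 1.57 ± 0.26 that was no longer called when only the groups compared were fitted. LsERF069, closest to DREB2D and named after its values were seen, had no read in heat or control and 0.222, 8.55 and 3.58 scaled CPM in salt, at least 41.4-fold higher against a floor of 3 reads per library, with replicate 1 of salt near the floor. Without replicate 2 of salt, the bound was 19.1-fold. LsERF075, the last of the group, differed by -0.03 and was not called.

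Among groups I and II of the DREB subfamily, 3 of 7 and 5 of 11 genes were higher in salt and none was lower. The shares higher were 42.9% and 45.5%, with 13.6% of all genes. LsERF015 of group II, closest to Arabidopsis ERF019, which acts in growth and water loss, read 14.1, 29.1 and 5.30 in salt and 0.0655, 0.144 and 0.0611 in heat, the latter being 2 to 4 reads per library. It differed by 4.53 ± 0.32, and every salt library exceeded every heat library. LsERF004 of group I, closest to RAP2.4, which acts in light and water stress responses of Arabidopsis, read 39.7, 67.6 and 29.9 in salt, 20.0, 18.4 and 20.1 in heat and 6.86 to 8.35 in the control. It was higher in salt by 1.13 ± 0.20, and lost the call without replicate 2 of salt and with each library scaled to 1000000. LsERF009 of group I read 4.04, 8.22 and 4.15 in salt and 1.97, 3.09 and 2.41 in heat, and its difference of 0.94 was under the threshold of 1. It was called under 5 alternatives, at 1.05 with a pseudocount of 0.1, at 1.11 in edgeR, and at 1.09 to 1.11 without replicate 1 of salt, replicate 3 of salt or replicate 2 of heat.

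Group III, which holds the CBF genes and the TINY-like genes, was divided: 5 of 24 genes were higher in salt and 6 were lower, with a median of -0.58. CBF proteins, also called DREB1, are the main activators of cold-responsive genes in Arabidopsis. Of the 7 LsCBF genes tested, 3 were higher in salt and 3 were higher in heat, with 13.6% and 11.1% of all genes. The 5 on linkage group 9 nearest to each other lie within 995 kb (62232796 to 63227994), and this stretch holds genes of both kinds.

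LsCBF4 (LsERF057, linkage group 9, 62282593 to 62283264, plus strand) read 12.1, 11.9 and 6.14 scaled CPM in salt, while the heat libraries held 1, 2 and 3 reads and the control none. From the summed reads it was 152 times higher in salt, with a counting interval of 69.3 to 414. LsCBF1 (LsERF028, linkage group 2, 210322269 to 210322862, minus strand) read 8.48, 7.79 and 6.45 in salt, 1.25, 0.720 and 0.917 in heat and 0.211 to 0.288 in the control. LsCBF3 (LsERF056, linkage group 9, 62232796 to 62233491, minus strand) read 4.89, 3.16 and 4.24 in salt and 0.295, 0.180 and 0.214 in heat. For all 3 genes, the salt libraries were well apart from the heat libraries, and the differences of LsCBF1 and LsCBF3 were 2.47 ± 0.19 and 2.64 ± 0.32.

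The other LsCBF genes had the opposite order. LsCBF11 (LsERF062, linkage group 9, 63158427 to 63159059, minus strand) read 0.178, 0.236 and 0.132 in salt, 1.90, 1.94 and 2.54 in heat and 0.295 to 0.324 in the control. LsCBF14 (LsERF055, linkage group 9, 187031234 to 187031878, plus strand) read 1.33, 2.17 and 2.34 in salt, 7.28, 7.38 and 7.67 in heat and 10.9 to 12.9 in the control. LsCBF7 (LsERF060, linkage group 9, 62769828 to 62770481, minus strand) read 0.800, 0.661 and 1.06 in salt and 3.80, 2.52 and 4.80 in heat. LsCBF11 thus stood above the control in heat, LsCBF14 stood below it in both stresses, and LsCBF7 in heat overlapped its control of 2.73 to 4.11. The differences were -1.94 ± 0.20 for LsCBF11 (limma adjusted p = 4.6e-09), -1.72 ± 0.21 for LsCBF14 and -1.62 ± 0.24 for LsCBF7. With a pseudocount of 2 in place of 0.5, LsCBF11 and LsCBF7 were no longer called, at -0.92 and -0.99. LsCBF12 (LsERF061) had at most 2 reads in the salt libraries and 0.557, 0.180 and 0.489 scaled CPM in heat, and its difference of -0.71 was not called in limma with a pseudocount of 0.5. It was called lower in edgeR, at -3.08, and with a pseudocount of 0.1, at -1.76.

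**Figure D3:**
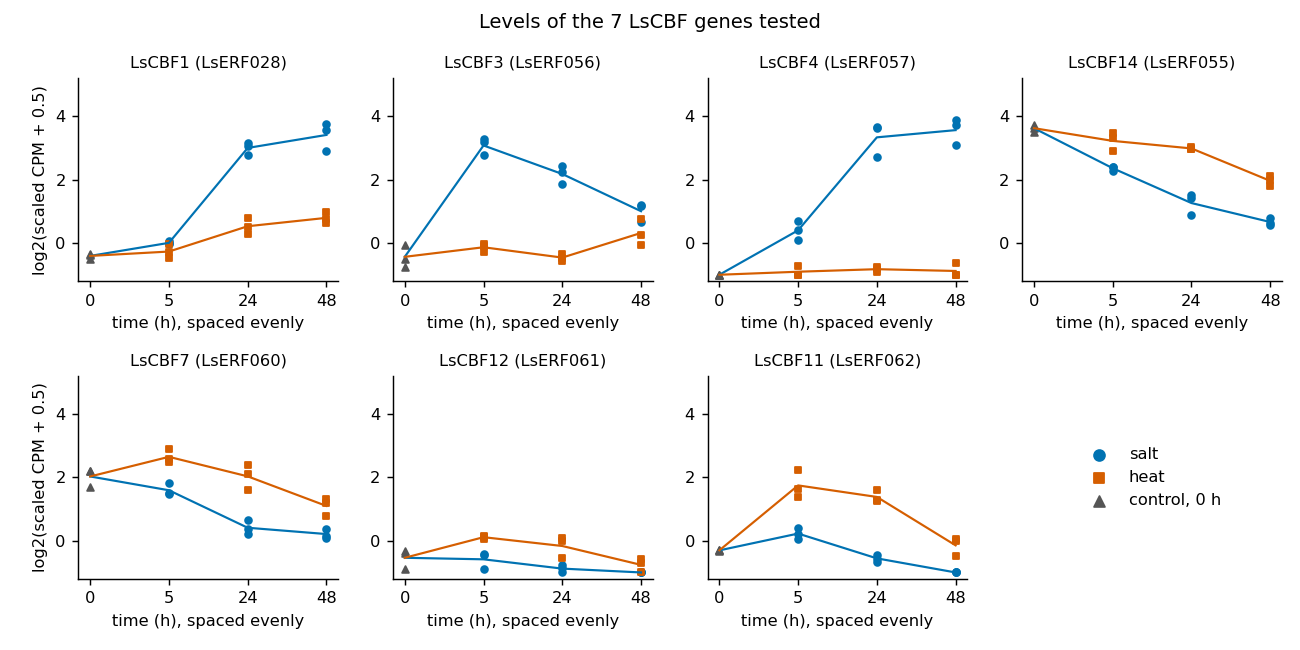
Level of the 7 LsCBF genes tested, as log2 of scaled CPM plus 0.5 (y axis), at 0, 5, 24 and 48 h (x axis, evenly spaced), where points are libraries and lines join the group means. LsCBF1, LsCBF3 and LsCBF4 have salt (blue circles) above heat (orange squares) at 24 h, and LsCBF14, LsCBF7 and LsCBF11 have heat above salt at 24 h.

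The duplicated genes named by the study include these CBF genes. Of its 68 tandem and segmental pairs, 22 had both genes tested. Both genes were called in the same direction in 9 pairs and in opposite directions in 4, a single gene was called in 3, and neither in 6. The 4 opposite pairs were all CBF pairs: LsCBF4 with LsCBF7 and LsCBF4 with LsCBF11, which are tandem, and LsCBF1 with LsCBF11 and LsCBF14 with LsCBF4, which are segmental. Several pairs share a gene, so they are not independent. As in the array on linkage group 6, reads of alike copies can be assigned to the wrong copy, and this was not tested. Outside the CBF genes, the segmental pair LsERF025 and LsERF048 was lower in salt in both genes. In the pair LsAP2.06 and LsAP2.09, both closest to the Arabidopsis growth gene AIL6, LsAP2.06 was higher in salt by 1.04 ± 0.25 and LsAP2.09 differed by 0.38. The call of LsAP2.06 was lost under 5 of its 15 alternatives, among them the absence of replicate 1 of salt or replicate 2 of heat.

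LsERF025 and LsERF048 are closest to TINY2 of Arabidopsis, whose relative TINY restrains growth. LsERF048 (linkage group 6, 30956661 to 30957332, minus strand) read 35.3, 12.1 and 25.3 in salt, 63.8, 64.0 and 67.4 in heat and 47.2 to 53.4 in the control. LsERF025 (linkage group 1, 53882856 to 53884037, minus strand) read 21.2, 8.93 and 11.8 in salt and 30.6, 27.2 and 31.1 in heat. Both were lowest in replicate 2 of salt and did not overlap between the stresses, with differences of -1.53 ± 0.20 and -1.15 ± 0.17. Of 7 tested genes closest to TINY2, these 2 were called, while 11.1% of all genes were called lower. All 7 had a fitted difference below 0, from -1.53 to -0.10, beside a median of -0.04 over all genes. LsERF053 of the same group read 1.02, 0.708 and 0.397 in salt, 3.93, 3.09 and 3.61 in heat and 5.19 to 7.66 in the control, a difference of -1.77 ± 0.16. LsERF025 was no longer called without replicate 2 of salt, at -0.88.

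Group V, with 4 of 9 genes lower in salt (44.4%, with 11.1% of all genes) and none higher, had a median of -0.81. The gene with the largest difference on the heat side of the whole family was LsERF081, closest to RAP2.11, which acts in the response to low potassium in Arabidopsis. LsERF081 (linkage group 2, 166088700 to 166089833, minus strand) read 1.42, 0.803 and 0.618 in salt, 12.3, 11.0 and 11.8 in heat and 6.36, 9.73 and 10.2 in the control. Heat thus lay above the control in every library and salt below it, and the difference was -3.11 ± 0.33 (limma adjusted p = 8.0e-09), or -2.22 to -3.64 over its 15 alternatives.

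The other genes of group V called are closest to SHN1, also called WIN1, an activator of cuticular wax and cutin synthesis in Arabidopsis. LsERF080 read 2.75, 0.378 and 1.15 in salt, 4.39, 4.39 and 4.52 in heat and 9.64 to 12.7 in the control. LsERF084 read 2.35, 0.756 and 1.90 in salt, 3.64, 4.03 and 4.71 in heat and 5.96 to 7.30 in the control. LsERF085 read 0.977, 0.142 and 1.02 in salt and 1.61, 1.76 and 2.63 in heat. In each of them replicate 2 of salt was lowest, and the differences were -1.56 ± 0.28, -1.17 ± 0.23 and -1.13 ± 0.24. A further gene closest to SHN1, LsERF086, went the other way at 0.99 ± 0.26 and was not called. Without replicate 2 of salt, LsERF084 and LsERF085 were no longer called, and LsERF085 also lost its call without replicate 3 of heat. With only the groups compared in the fit, 1 gene of group V was called lower, and with a pseudocount of 2 also 1.

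Group VIII had 4 of 14 genes higher in salt (28.6%, with 13.6% of all genes) and 1 lower (7.14%, with 11.1%). LsERF116, closest to the repressor ERF4, read 25.1, 28.4 and 26.4 in salt, 13.3, 11.4 and 12.8 in heat and 1.57 to 1.73 in the control. It was higher than at 0 h in both stresses and higher in salt than in heat by 1.06 ± 0.30. This call was lost with a pseudocount of 2, at 0.98, and with each library scaled to 1000000. It was also lost without replicate 2 of salt and without replicate 2 of heat. LsERF121, also closest to ERF4, read 0.977, 1.51 and 0.883 in salt and 4.19, 2.52 and 3.42 in heat, a difference of -1.25 ± 0.23 that was no longer called with a pseudocount of 2, at -0.78. With each library scaled to 1000000, the group had 2 genes higher and 2 lower.

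In the smaller groups, few genes were called. Group VII, whose Arabidopsis members sense low oxygen, had 1 of 6 genes higher in salt (16.7%, near the 13.6% of all genes). This gene, LsERF115, is closest to HRE2 and named after its values were seen. It read 50.6, 54.6 and 52.6 in salt and 14.1, 14.5 and 14.6 in heat, a difference of 1.83 ± 0.14. Group VI, the cytokinin response factors, had 2 of 9 higher (22.2%, with 13.6% of all genes) and 1 lower (11.1%, as over all genes). Group VI-L had none of 5 called. LsRAV.3, closest to RAV1, which restrains growth in Arabidopsis, was 1 of 2 RAV genes tested and read 167, 224 and 147 in salt and 54.7, 62.7 and 68.5 in heat, a difference of 1.51 ± 0.14. It is also named after its values were seen. Both Soloist genes were not called.

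The AP2 subfamily, with 23 genes tested, stood near 0 with a median of -0.10. In it 2 genes were higher in salt (8.70%, with 13.6% of all genes) and none lower, with 11.1% of all genes lower. These counts became 1 higher and 4 lower with each library scaled to 1000000. LsAP2.21, closest to WRI1, a regulator of fatty acid synthesis in Arabidopsis, read 2.00, 3.50 and 2.30 in salt and 0.131, 0.180 and 0.183 in heat, a difference of 2.19 ± 0.20. LsAP2.05, also closest to WRI1, read 7.64, 2.1 and 5.17 in salt and 2.79, 2.99 and 2.11 in heat, so its groups overlapped, and its difference of 0.67 was called only without replicate 2 of salt, at 1.13. LsAP2.13, closest to the floral gene AP2, read 64.5, 50.3 and 55.3 in salt and 51.7, 49.1 and 47.0 in heat. LsAP2.14 read 4.00, 3.78 and 3.58 in salt and 3.41, 3.13 and 3.36 in heat. Neither was called, at 0.19 ± 0.11 and 0.17 ± 0.15, and both differences changed sign to -0.10 and -0.092 with each library scaled to 1000000.

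**Figure D4:**
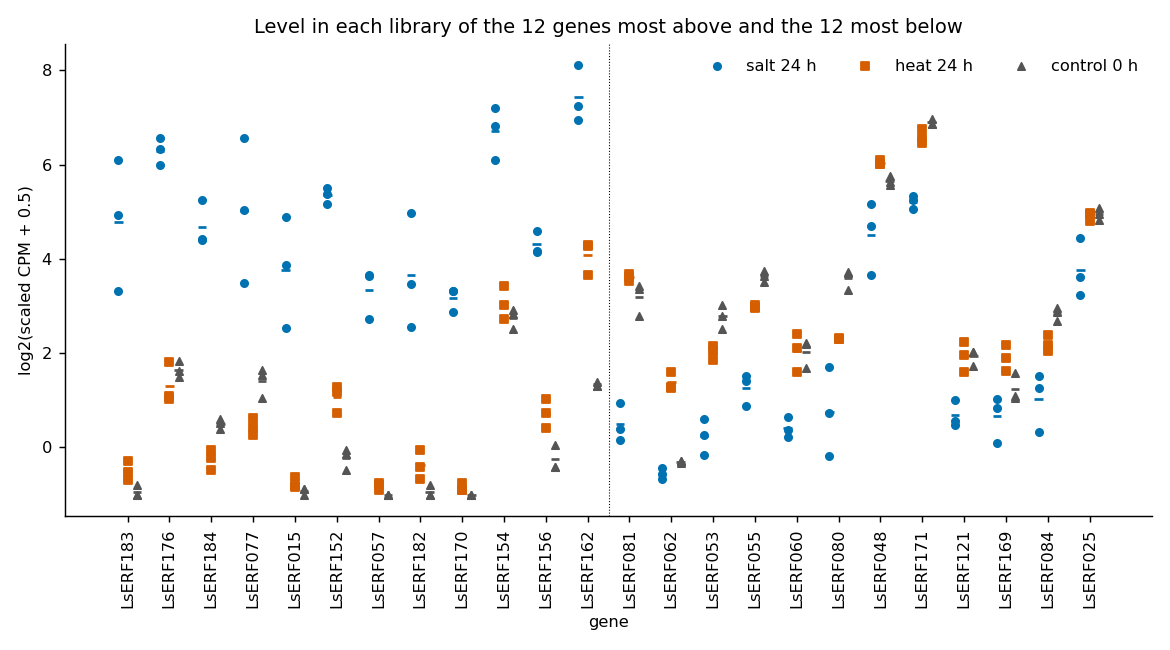
Level in each library, as log2 of scaled CPM plus 0.5 (y axis), of the 12 AP2/ERF genes with the largest difference above 0 and the 12 with the largest below 0 (x axis, divided by the dotted line), where short bars are group means. The 24 genes were chosen so that the salt points (blue circles) lie wholly above or wholly below the heat points (orange squares). Salt spreads most in LsERF183, LsERF077 and LsERF182.

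Against the 0 h control, 60 family genes were higher (39.2%, with 15.3% of all genes) and 19 lower (12.4%, with 13.9%) in salt at 24 h, and 18 were higher (11.8%, with 4.86%) and 5 lower (3.27%, with 5.54%) in heat. Both comparisons share the control libraries, and their values are set side by side. Neither was repeated under any alternative, so the part of replicate 2 of salt in them was not tested. In salt, LsERF183 was 5.71 above the control on the log2 scale, LsERF176 was 4.64 above and LsDREB2A was 3.62 above. In heat the same genes were at 0.44, -0.35 and -0.96 and none was called. LsERF162 was different in that heat too was called, at 2.75 against 6.09 in salt. Of the genes higher in heat, LsERF055, LsERF053 and LsERF171 were called lower than the control in salt, at -2.36, -2.54 and -1.68, while in heat they stood at -0.64, -0.77 and -0.31. LsERF062 stood at 1.69 in heat, a call, and at -0.25 in salt, and LsERF169 and LsERF085 were called in neither stress, at 0.66 and 0.48 in heat and -0.58 and -0.65 in salt. Salt at 24 h and the control, like heat at 24 h and the control, differ in time as well as in stress.

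The libraries taken at 48 h, which share none with those at 24 h, gave the same direction at most genes. Of the 50 AP2/ERF genes higher in salt at 24 h, 47 were higher at 48 h, a share of 94.0% beside 94.8% of all genes higher in salt at 24 h. Of the 16 lower genes, 12 were lower at 48 h, a share of 75.0% beside 91.5% of all genes. No family gene was called in opposite directions at these times. Such reversals were rare over all genes too, at 4 of the 3154 higher in salt at 24 h and 1 of the 2568 lower. The genes that dropped out were LsERF056, LsERF030, LsAP2.06, LsERF149, LsERF121, LsERF060 and LsERF062, of which 4 belong to the CBF group III. At 48 h, 59 family genes were higher in salt (38.6%, with 19.8% of all genes) and 30 lower (19.6%, with 21.2%), and with each library scaled to 1000000, 50 and 52 were, with 13.3% and 35.7% of all genes.

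At 5 h the stresses differed at fewer genes. In the family, 32 genes were higher in salt (20.9%, with 7.44% of all genes) and 4 were lower (2.61%, with 5.89%). Of the 50 genes higher in salt at 24 h, 24 were already higher at 5 h, a share of 48.0% beside 43.2% of all genes higher in salt at 24 h. Of the 16 lower, 2 were lower at 5 h, a share of 12.5% beside 33.7% of all genes. These 2 were LsCBF11 and LsCBF7, at -1.52 and -1.06. LsERF184 stood at 5.03 at 5 h and 4.94 at 24 h, while LsERF170 stood at -0.14 at 5 h and was not called.

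The size of the difference changed between 24 h and 48 h at 41 family genes, 25 upward (16.3%, with 6.33% of all genes) and 16 downward (10.5%, with 5.27%). Without replicate 2 of salt at 24 h, 37 and 22 changed. LsDREB2A read 156, 235 and 167 in salt at 48 h and 0.738, 0.399 and 0.605 in heat, so its difference went from 4.58 to 7.42, a change that was not called in edgeR (2.56) or with only the libraries compared in the fit. LsERF048 read 3.89, 4.02 and 4.21 in salt at 48 h and 84.7, 77.4 and 70.6 in heat, and its difference went from -1.53 to -4.10. At LsERF048 the salt libraries had an SD of 11.6 at a mean of 24.2 scaled CPM at 24 h, and 0.164 at a mean of 4.04 at 48 h. At LsDREB2A the SD was 43.1 at both times, at means of 45.5 and 186. Relative to the mean, the salt libraries of both genes were thus closer together at 48 h. The difference at LsCBF3 became smaller instead. This gene was highest in salt at 5 h, at 8.55, 9.30 and 6.36, and had 1.79, 1.73 and 1.09 at 48 h, when its difference of 0.69 was not called.

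**Figure D5:**
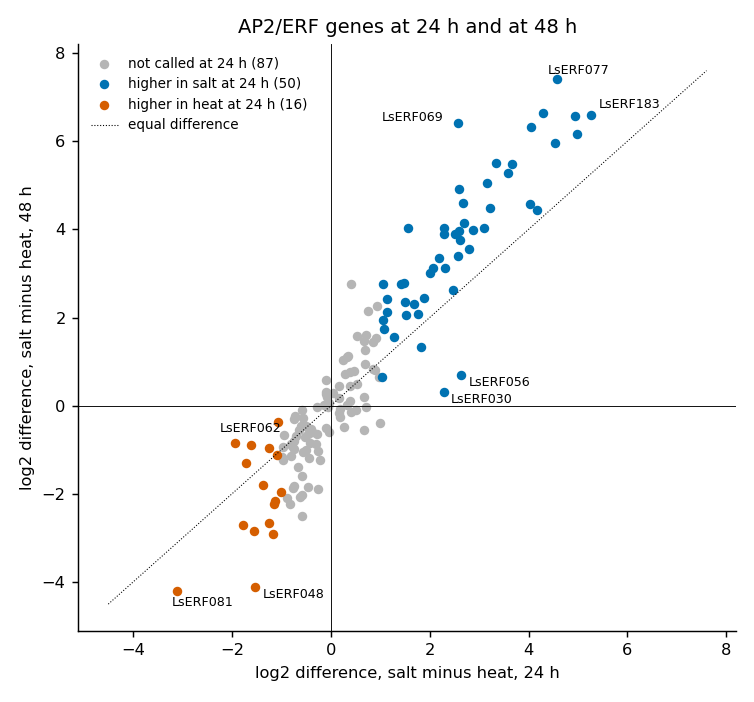
Log2 difference between salt and heat at 48 h (y axis) against that at 24 h (x axis) for the 153 AP2/ERF genes, coloured by the call at 24 h, with a dotted line where the differences are equal. Most blue points lie above the line, LsERF077 and LsERF069 are far above it, and LsERF056 and LsERF030 lie far below it near 0 at 48 h.

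Outside the family, the genes with the largest differences of log2(value + 0.5) carry no product name in the sources used here. The gene Lsat_1_v5_gn_7_93760.1 read 353, 382 and 582 in salt and 3.64, 2.12 and 2.08 in heat, a difference of 7.14 ± 0.43 (limma adjusted p = 4.6e-13). Lsat_1_v5_gn_1_3740.1 read 172, 376 and 292 in salt and 7.11, 2.66 and 1.04 in heat, a difference of 6.32 ± 0.43. On the heat side, Lsat_1_v5_gn_4_31161.1 read 58.2, 58.8 and 57.6 in heat and had 4, 1 and 3 reads in the salt libraries and 0.036 to 0.045 scaled CPM in the control. Lsat_1_v5_gn_2_131360.1 read 416, 379 and 534 in heat and 5.64, 11.9 and 7.51 in salt, a difference of -5.69 ± 0.21.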

How the data were processed

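The authors aligned the paired reads with STAR 2.5.2 to the lettuce genome version 8 and counted them per gene with featureCounts. The deposited values are a signal per gene, CPM (counts per 1000000 reads) whose library sizes the authors had rescaled. The rescaling method is not given in the sources used here, and the test had been planned for plain CPM. Whole reads were recovered from these values (100% of the values above 0 within 0.001 reads) and gave depths, floors and counting intervals, which cover counting error only.

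Values were taken as log2(value + 0.5), and all 30 Salinas libraries were fitted with limma 3.58.1 in R 4.3.3 (a coefficient per group, eBayes with trend), with Benjamini-Hochberg adjustment over the 23231 genes tested. Genes were called at an adjusted p up to 0.01 with a difference of at least 1, the thresholds of the study. A log2 difference on this scale understates that of low genes. The SE and p-values rest on a spread pooled over all groups, and do not measure that of the libraries compared alone. The replicates are described as biological triplicates. Fits were tested on simulated data, where limma recovered 190 of 200 changed genes among 22825 in the comparison of salt with heat at 24 h. The number of unchanged genes called there is not given. The share of true differences recovered in the real libraries was not tested. Python 3.11.15, numpy 2.4.6, pandas 2.3.3, scipy 1.17.1 and matplotlib 3.10.9 made tables and figures.

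Family names, positions, subgroups, duplicate pairs and closest Arabidopsis genes come from the lists of the study. The genes named are the 12 with the largest differences in each direction among those called with no overlap of libraries. Those in the study's text on expression, and those of duplicate pairs with a gene called, are named as well. Others are said to be named after their values were seen, which also holds for LsERF030, LsERF075, LsERF086 and LsERF181. Outside the family, the first 2 in each direction are given. Members and lists were chosen with earlier results of these data known. Lists by product and tissue markers were not used, because no source pairs these gene IDs with products, and no sequence is printed. The alternatives tried were pseudocounts of 0.1 and 2, dropping the filter or applying it to the libraries compared, scaling each library to 1000000, centring on the median, fitting the groups compared alone, blocking on the replicate number, testing recovered reads with edgeR 4.0.16 (quasi-likelihood, TMM), and leaving out each library.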

Additional observations from a re-analysis of the deposited data

Results flagged for a closer look

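At 17 of the 41 named genes the difference between salt and heat changed from 24 h to 48 h by the interaction test (limma, adjusted p of 0.01 or less and a change of at least 1 on the log2 scale). The difference rose by 2.84 at LsERF077, 2.46 at LsERF073, 2.35 at LsERF152, 2.27 at LsERF182 and 2.16 at LsERF162. Smaller rises were 1.82 at LsERF154, 1.75 at LsERF164, 1.68 at LsERF156, 1.63 at LsERF184, 1.60 at LsERF165, 1.16 at LsAP2.21 and 1.08 at LsERF062. At LsERF062 the salt libraries at 48 h held no read, so the size of its excess in heat at 48 h has no upper bound. Its rise depends on the pseudocount and cannot be read as a smaller excess in heat. With a pseudocount of 0.1 the change was 0.68 and not called, and edgeR gave -2.96, also not called. The change was -2.57 at LsERF048, -1.95 at LsERF056, -1.73 at LsERF084, -1.42 at LsERF169 and -1.07 at LsERF025. Of these 17 calls, edgeR kept 12, a fit of the libraries compared kept 11 and a pseudocount of 2 kept 12. The change at LsERF184 lost its call under 12 of 21 alternatives, 9 of them leaving out 1 library, that at LsAP2.21 under 8 and that at LsERF062 under 6. LsERF025 lost it under 3, and LsERF077, LsERF182 and LsERF169 under 2, edgeR among them for LsERF077 and LsERF182, and LsERF084 under 1.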

How the results depend on the processing

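Of the 35 named genes called at 24 h, 23 were called under each of their alternatives, and edgeR kept all 35. The other 12 were lost somewhere, 9 of them with a pseudocount of 2 and 6 without replicate 2 of salt. Low genes depend on the pseudocount: LsERF057 stood at 4.17, at 2.5 with a pseudocount of 2 and at 7.14 in edgeR. At 24 h, genes lower in salt numbered 2568 of all genes, 1448 with a pseudocount of 2 and 4309 with each library scaled to 1000000, and in the family 16, 7 and 27, and 25 with a pseudocount of 0.1, while edgeR gave 24. With each library scaled to 1000000, 52 family genes were lower at 48 h instead of 30. With a pseudocount of 2, 20 instead of 32 were higher and 1 instead of 4 lower at 5 h. Upward changes from 24 h to 48 h numbered 14 in edgeR instead of 25, and downward ones, 16 before, numbered 10 in a fit of the libraries compared alone and 6 at a pseudocount of 2. The sign reversed at LsAP2.13 (-0.10) and LsAP2.14 (-0.092) with each library scaled to 1000000, and for the change of LsERF062 in edgeR (-2.96). The causes were not tested.

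Leaving out 1 library gave 2878 to 3448 genes higher and 2184 to 3094 lower at 24 h, and in the family 49 to 54 and 11 to 21. At 48 h it gave 57 to 60 and 27 to 34, at 5 h 28 to 35 and 3 to 5, and for the change 20 to 37 and 11 to 22. The study grew the plants in randomized blocks, and the labels do not give the block of a library. Deviations of same-numbered libraries at 24 h correlated at -0.055, 0.249 and -0.034, and those of unlike-numbered libraries at -0.265 to 0.281. These few values cannot decide whether replicate numbers pair the libraries. With the replicate number as a block, 3153 genes were higher and 2571 lower, 50 and 16 of them in the family, and no named call was lost. Depth limits LsERF057, LsERF170 and LsERF015, which had 1 to 4 reads in each heat library.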
